A study of Mus musculus with 9 samples.

Results

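The genes described are the 5 receptors of the GDNF family in the mouse, Ret, Gfra1, Gfra2, Gfra3 and Gfra4, chosen by name for their place in 1 signaling pathway, with earlier results of these data known. They are 5 of the 46078 gene identifiers counted. Reads per gene were measured in 9 libraries of EGFP-SSC, a WT mouse spermatogonial stem cell (SSC) line that carries green fluorescent protein, with 3 libraries at each of 0 h, 24 h and 48 h. The 0 h cells were in normal culture, on mouse embryonic fibroblasts stopped with mitomycin C, in StemPro-34 medium with GDNF (10 ng/ml), FGF2 (10 ng/ml) and EGF (20 ng/ml). For 24 h and 48 h, the line was mixed in equal parts with somatic cells of young testes from which busulfan had removed germ cells, in α-MEM with serum replacement, BMP-4 and BMP-7 (20 ng/ml each), activin A (100 ng/ml), retinoic acid, testosterone, FSH and pituitary extract, and EGFP-positive cells were then sorted. GDNF is not among the listed components of the second medium, so time, medium and the surrounding cells changed together and cannot be told apart. All libraries come from 1 line and are labelled as biological replicates, and p-values measure the spread between these samples.

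RET is a receptor tyrosine kinase that does not bind its ligands alone. The co-receptors GFRα1 to GFRα4, encoded by Gfra1 to Gfra4, are held on the cell surface by a lipid anchor, bind GDNF, neurturin, artemin and persephin respectively as their preferred ligands, and bring RET into the signaling complex. In the testis, GDNF is made by Sertoli and peritubular myoid cells, and GFRα1 with RET on undifferentiated spermatogonia passes on the signal that sustains SSC self-renewal.

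The libraries held 16825251 to 22201892 counts, and each of the 5 receptors passed the expression filter in all 3 comparisons. Levels are CPM, the counts of a gene scaled to the TMM-normalized size of its library, and groups are summarized by their mean ± SD of 3 libraries. Differences are log2 fold changes from edgeR's quasi-likelihood test, two-sided, with Benjamini-Hochberg adjustment over all genes tested and a threshold of 0.05. In bulk RNA, fewer cells that express a gene and less of its RNA per cell cannot be told apart. The germ cell markers (Ddx4, Dazl, Dnd1, Mael and Tex101) were present throughout, with summed levels of 1270 to 2290 CPM at 0 h, 1440 to 1690 at 24 h and 1510 to 1770 at 48 h. None of the 5 passed the test at 24 h and 1 was lower at 48 h. The 7 markers of undifferentiated spermatogonia (Zbtb16, Sall4, Lin28a, Id4, Nanos2, Nanos3 and Neurog3) summed to 661 to 806, 714 to 792 and 543 to 634 CPM at the 3 times, and of these genes 3 fell and 1 rose at 24 h, while 5 fell and 0 rose at 48 h against 0 h. Of all genes tested, 14.2% fell and 11.4% rose at 24 h, and 18.5% fell and 13% rose at 48 h against 0 h. Id4 and Nanos2, which are also among the GDNF-responsive genes described further on, went from 37.4 to 6.57 CPM and from 5.29 to 0.786 CPM at 24 h and add little to the sum.

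Ret and Gfra1, the pair through which GDNF signals, both fell to a small part of their 0 h level by 24 h and fell further by 48 h. Gfra3, the artemin co-receptor, rose from near the bottom of the range. Gfra4 ended lower at 48 h than at 0 h, and Gfra2 was low at every time. At 24 h against 0 h, 1 receptor was higher and 3 were lower, where 25.5% of 17592 genes tested passed the threshold (11.4% higher and 14.2% lower). At 48 h against 0 h, again 1 was higher and 3 were lower, beside 31.6% of 17755 genes (13% higher and 18.5% lower). At 48 h against 24 h, 3 receptors were lower and 0 higher, beside 21.3% of 17499 genes (8.61% higher and 12.7% lower). The 3 libraries of one time did not overlap with those of the other for 5 of 5 receptors at 24 h against 0 h, for 4 at 48 h against 0 h and for 4 at 48 h against 24 h. The groups did not overlap for 43.4%, 48.3% and 39.6% of all genes tested in these comparisons. Both comparisons with 0 h use the same 0 h libraries.

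**Figure D1:**
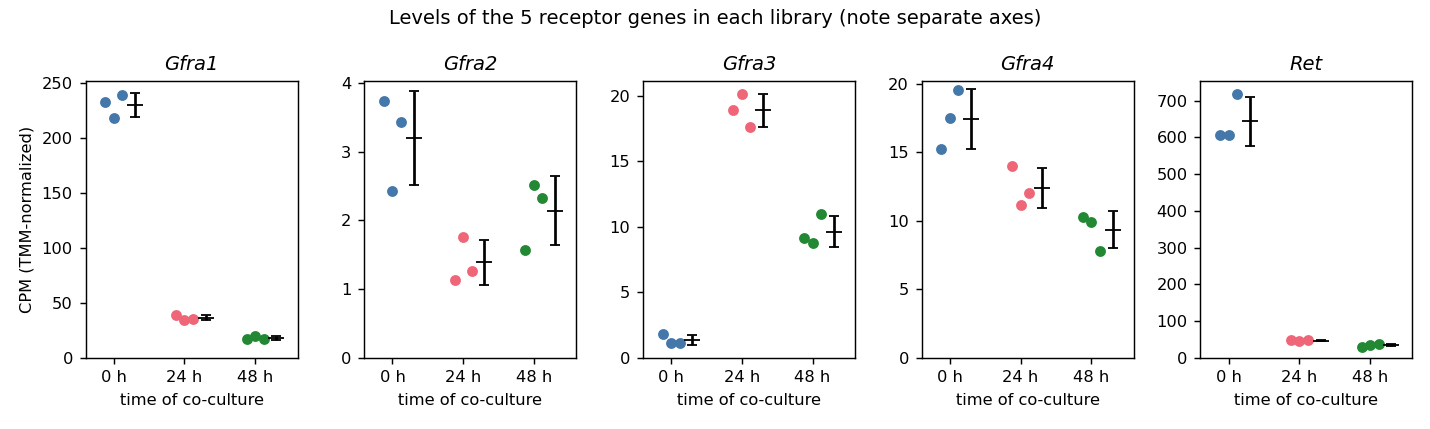
Level of each receptor gene in CPM (vertical axis, linear, a separate scale for each gene) against time of co-culture, with 1 point per library and the mean ± SD (n = 3) as a bar beside the points. Ret and Gfra1 drop at 24 h, Gfra3 peaks at 24 h, Gfra4 steps down, and the Gfra2 points of 48 h lie between and partly among those of 0 h and 24 h.

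Ret (ENSMUSG00000030110, GRCm38 chromosome 6, 118151745 to 118197718, minus strand), the signaling kinase shared by all 4 co-receptors, was at 0 h the receptor gene with the highest level, also per length. It measured 605, 606 and 719 CPM in the 0 h libraries, 47.8, 46.1 and 47.1 CPM in the 24 h libraries and 30.7, 35.9 and 36.5 CPM in the 48 h libraries. The lowest 0 h library was far above the highest 24 h library, and all 48 h libraries were below all 24 h libraries. The mean fell from 643 ± 65.6 CPM to 47.0 ± 0.851 at 24 h, with a log2 fold change of -3.76 (standard error 0.122, edgeR adjusted p = 7.42e-06), which is 13.6-fold lower. By 48 h it was at 34.4 ± 3.20 CPM, and log2 fold changes were -4.22 against 0 h (standard error 0.14, edgeR adjusted p = 5.7e-06) and -0.46 against 24 h (standard error 0.0822, edgeR adjusted p = 0.00497). Most of the fall thus lay in the first 24 h. No 50-base stretch of its longest transcript occurred in another annotated gene.

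Gfra1 (ENSMUSG00000025089, GRCm38 chromosome 19, 58235604 to 58455909, minus strand), the co-receptor for GDNF and a marker of undifferentiated spermatogonia, followed the same order of times. Its levels were 233, 218 and 239 CPM at 0 h, 38.8, 34.6 and 35.7 CPM at 24 h, and 17.0, 19.8 and 17.2 CPM at 48 h. Each time point formed a tight group that did not overlap with the others. The mean fell from 230.0 ± 10.6 CPM to 36.4 ± 2.20 at 24 h, with a log2 fold change of -2.65 (standard error 0.111, edgeR adjusted p = 1.57e-05). At 48 h it was 18.0 ± 1.58 CPM, with log2 fold changes of -3.67 against 0 h (standard error 0.123, edgeR adjusted p = 5.7e-06) and -1.02 against 24 h (standard error 0.089, edgeR adjusted p = 0.000187). Gm16277, an antisense transcript, shares 416 bases (7.6%) of the Gfra1 exons and had 2, 4 and 1 counts at 0 h and 0 in the other libraries. Whether reads were counted by strand is not given in the sources used here.

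The 62 bases before a Gfra1 transcript start are shown because Gfra1 is the co-receptor with the largest fall. They come from RefSeq (GRCm38.p6, chr19:58455399-58455460, minus strand, 53.2% GC), with an E-box, the letters CANNTG, in capitals. This start, at 58455398, lies inside the annotated gene, which on the minus strand begins at 58455909. The stretch shown ends where the next annotated exon upstream begins. RefSeq promoter windows of 300 bases were matched for 2 of the 5 receptors, 1 for Gfra1 and 2 for Gfra4.
Gfra1 promoter: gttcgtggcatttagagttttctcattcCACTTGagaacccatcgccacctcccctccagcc
The E-box reads the same pattern on both strands, and its first base here lies at -34 from the start. The Gfra1 window held 3 of them, and 72.3% of 32851 promoter windows of the same length held at least 1. An ETS core, CCGGAA on either strand, lay at -156 in Gfra1, as in 14.9% of all windows. The GC box GGGCGG, the nuclear receptor site AGGTCA and the TATA box TATAAA, sought on both strands, did not occur in the Gfra1 window and were held by 35.7%, 16.3% and 13.6% of all windows. These motif matches are descriptions of the letters only.

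In these libraries, the fall was not the same for Ret and its co-receptor gene Gfra1. Per library, Ret had 2.6, 2.78 and 3.01 counts for each count of Gfra1 at 0 h. The ratio was 1.23, 1.33 and 1.32 at 24 h and 1.8, 1.81 and 2.12 at 48 h. It was thus highest at 0 h, lowest at 24 h and intermediate at 48 h, with no overlap between times. On the log2 scale, the mean ratio was 1.48 ± 0.108 at 0 h, 0.37 ± 0.063 at 24 h and 0.93 ± 0.133 at 48 h. The differences were -1.11 at 24 h and -0.55 at 48 h against 0 h, and 0.56 at 48 h against 24 h. In two-sided exact permutation tests, each of the 3 comparisons gave p = 0.1 (0.1 after Benjamini-Hochberg adjustment), the smallest value that 3 against 3 libraries allow. With all 48 h ratios above all 24 h ratios, Gfra1 fell more on the log2 scale than Ret between these times in every pairing of libraries.

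Gfra3 (ENSMUSG00000024366, GRCm38 chromosome 18, 34689898 to 34720387, minus strand), the co-receptor for artemin and best known from sensory and sympathetic neurons, moved in the opposite direction. It measured 1.81, 1.14 and 1.09 CPM at 0 h, from 29, 23 and 22 counts, and then 18.9, 20.1 and 17.6 CPM at 24 h, from 385, 377 and 360 counts. At 48 h it was at 9.16, 8.73 and 10.98 CPM, from 175, 201 and 217 counts. All 24 h libraries were above all 48 h libraries, which were above all 0 h libraries. The mean rose from 1.35 ± 0.399 to 18.9 ± 1.29 CPM, and the log2 fold change was 3.83 (standard error 0.231, edgeR adjusted p = 4.94e-05), a 14.2-fold rise. At 48 h it was 9.62 ± 1.2 CPM, 7.16-fold above 0 h (log2 fold change 2.84, standard error 0.257, edgeR adjusted p = 0.000241). Between 24 h and 48 h it fell by 0.98 on the log2 scale (standard error 0.118, edgeR adjusted p = 0.000834), so the rise was partly lost again. Its longest transcript shared no 50-base stretch with another annotated gene.

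Markers of somatic cells moved with the times at which Gfra3 was high. Summed over 6 stromal or feeder fibroblast markers, which include collagens that other cells also make, the levels were 261 to 357 CPM at 0 h, 2090 to 2420 at 24 h and 2810 to 3100 at 48 h, and 4 of the 6 rose at 24 h. The 5 peritubular myoid markers summed to 13.7 to 15.5, 144 to 204 and 252 to 311 CPM, and 4 of the 5 rose at 24 h. The sum of 6 Sertoli cell markers was 17.9 to 19.2, 34.6 to 48.8 and 41.9 to 45.6 CPM, with 4 higher and 2 lower at 24 h. Among these, Amh was at 0 to 0.249 CPM at 0 h, 3.93 to 8.15 at 24 h and 0.521 to 1.2 at 48 h, and Sox9 and Rhox5 fell at 24 h. The 5 Leydig cell markers summed to 4.38 to 6.79, 24.6 to 38.5 and 25.2 to 32.6 CPM, and Hsd3b1 and Insl3 among them had 0 counts in the 0 h libraries. From 24 h to 48 h, when Gfra3 fell, the stromal and myoid sums went up, and the Sertoli and Leydig sums overlapped between the times. Most markers of these lists had their highest mean at 48 h, unlike Gfra3. These were Wt1, Gata4 and Cldn11 (Sertoli), Acta2, Myh11, Cnn1 and Tagln (myoid), Hsd3b1 and Star (Leydig), and the stromal genes other than Pdgfra. A minority had their highest mean at 24 h as Gfra3 did. Among them, the means were 0.133, 5.79 and 0.828 CPM for Amh, 0.493, 20.8 and 14.6 CPM for the Leydig cell gene Cyp11a1, and 27.3, 44.6 and 36.2 CPM for the stromal gene Pdgfra. Schwann cell and neuron markers summed to 7.82 to 15.8, 8.59 to 9.14 and 10.5 to 11.2 CPM, with 0 of 3 tested genes higher at 24 h. Endothelial and macrophage markers had lower sums after 0 h, at 43.3 to 47.2, 14.4 to 18.7 and 12.2 to 12.8 CPM for the first and 15.3 to 17.5, 6.2 to 10.1 and 6.33 to 9.16 CPM for the second. These sums were carried by Pecam1 and Kdr and by Cd68, which fell at 24 h, while Tek (1.42, 3.49 and 4.10 CPM) and Csf1r (0.294, 1.08 and 0.652 CPM) rose at 24 h. Of the tested genes, 2 of 4 endothelial markers fell and 1 rose at 24 h, and 1 of 3 macrophage markers fell and 1 rose. The counts of all these lists at 24 h stand beside 11.4% of all genes tested that rose and 14.2% that fell. The part of somatic cells or their RNA in the levels of the receptors was not tested.

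Gfra4 (ENSMUSG00000027316, GRCm38 chromosome 2, 131039632 to 131043088, minus strand), the co-receptor for persephin, changed least among the receptors that passed the test at 48 h. It measured 15.2, 17.5 and 19.6 CPM at 0 h, 14.0, 11.2 and 12.1 CPM at 24 h, and 10.3, 9.94 and 7.79 CPM at 48 h. No 2 time points overlapped, although the lowest 0 h library and the highest 24 h library were close. The means were 17.4 ± 2.18, 12.4 ± 1.44 and 9.33 ± 1.34 CPM. Gfra4 fell at 48 h against 0 h by 0.90 on the log2 scale (standard error 0.169, edgeR adjusted p = 0.00633). The log2 fold changes of -0.48 at 24 h against 0 h (edgeR adjusted p = 0.065) and -0.42 at 48 h against 24 h (edgeR adjusted p = 0.064) missed the threshold. The first of these passed without 0 h replicate 1 (log2 fold change -0.56, edgeR adjusted p = 0.0324). Mir6973b shares 80 bases (3.7%) of the Gfra4 exons and had 0 counts in every library.

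Gfra2 (ENSMUSG00000022103, GRCm38 chromosome 14, 70890120 to 70979838, plus strand), the co-receptor for neurturin, was the receptor with the fewest reads after 0 h. Its counts were 60, 49 and 69 at 0 h, 23, 33 and 26 at 24 h and 30, 58 and 46 at 48 h. In CPM these are 3.74, 2.43 and 3.44, then 1.13, 1.76 and 1.27, then 1.57, 2.52 and 2.33. The 24 h libraries were all below the 0 h libraries, and the 48 h libraries overlapped with both. The mean went from 3.20 ± 0.685 to 1.39 ± 0.333 CPM at 24 h, and the log2 fold change was -1.19 (standard error 0.296, edgeR adjusted p = 0.0232). This call was lost without 24 h replicate 1 (log2 fold change -1.07, edgeR adjusted p = 0.0977) and without 24 h replicate 3 (log2 fold change -1.12, edgeR adjusted p = 0.0923). At 48 h the mean was 2.14 ± 0.501 CPM, with log2 fold changes of -0.57 against 0 h (edgeR adjusted p = 0.179) and 0.62 against 24 h (edgeR adjusted p = 0.149), neither past the threshold. Of its longest transcript, 1.4% of the 50-base stretches occur in other genes too.

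To set the receptors side by side, counts were also divided by the length of the exons of each gene (FPKM). At 0 h the order in FPKM was Ret (95.1 ± 9.69), Gfra1 (42.0 ± 1.93), Gfra4 (8.05 ± 1.01), Gfra2 (0.904 ± 0.193) and Gfra3 (0.675 ± 0.199), and only the ranges of Gfra2 and Gfra3 overlapped. At 24 h Gfra3 (9.45 ± 0.647 FPKM) stood above Ret (6.95 ± 0.126), Gfra1 (6.64 ± 0.402) and Gfra4 (5.73 ± 0.666). The ranges of Ret and Gfra1 overlapped, as did those of Gfra1 and Gfra4. Gfra2 was far below at 0.392 ± 0.0942 FPKM. At 48 h Ret (5.09 ± 0.473 FPKM), Gfra3 (4.82 ± 0.599), Gfra4 (4.31 ± 0.620) and Gfra1 (3.29 ± 0.289) each overlapped with the next, and Gfra2 was at 0.604 ± 0.142. With the length of the longest transcript in place of all exons, Gfra4 (5.21 FPKM) came before Gfra3 (4.82 FPKM) at 48 h.

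**Figure D2:**
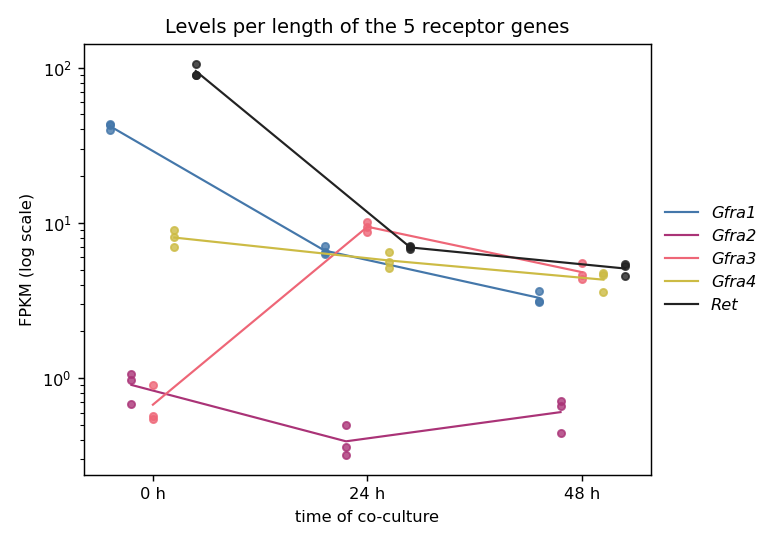
Level of the 5 receptor genes per length in FPKM (vertical axis, log scale) against time of co-culture, with 1 point per library and a line through the mean of the 3 libraries of each time. The genes span from 0.675 to 95.1 FPKM in the mean at 0 h, and 4 of them lie between 3.29 and 5.09 FPKM at 48 h.

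The make-up of the co-receptor transcripts shifted from mostly Gfra1 to a mixture. Gfra1 made up 80.5% to 82.6% of the summed co-receptor FPKM in the 0 h libraries, 28.6% to 30.7% at 24 h and 24.1% to 27.2% at 48 h. The share of Gfra3 went from 1.01% to 1.75% at 0 h to between 40.6% and 45.7% at 24 h and between 32.9% and 42.6% at 48 h. Gfra4 held 13.6% to 16.7% at 0 h, 23.4% to 27.7% at 24 h and 27.9% to 36.8% at 48 h, and Gfra2 held at most 5.35% in any library. The sum itself shrank, from between 49.2 and 54.1 FPKM at 0 h to between 21.2 and 23.3 at 24 h and between 12.9 and 13.3 at 48 h. For each unit of co-receptor FPKM, there were 1.74 to 1.96 units of Ret at 0 h, 0.303 to 0.328 at 24 h and 0.353 to 0.419 at 48 h. Ret thus went from more abundant than the 4 co-receptors together to less abundant in every library after 0 h. Gfra3 had 0.0126 to 0.0212 of the Gfra1 FPKM at 0 h, 1.33 to 1.6 times as much at 24 h and 1.21 to 1.75 times at 48 h. These shares are descriptions without a test.

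**Figure D3:**
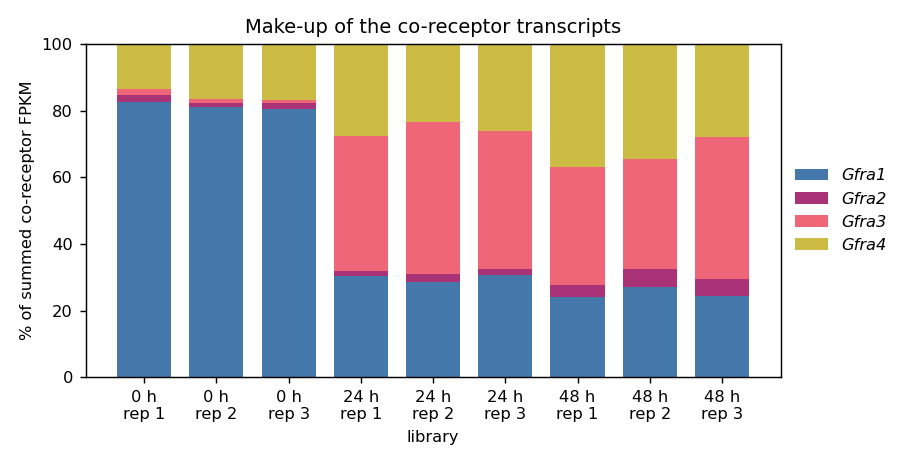
Share of Gfra1, Gfra2, Gfra3 and Gfra4 in the summed co-receptor FPKM (vertical axis, percent, from 0) in each of the 9 libraries (horizontal axis). Gfra1 fills at least 80.5% of each 0 h bar and at most 30.7% of the bars of 24 h and 48 h, where Gfra3 and Gfra4 fill most of the rest.

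The ligands of the family were measured in the same libraries. Gdnf was scarce at 0 h, with 6, 1 and 5 counts, and had 28, 41 and 28 counts at 24 h and 35, 30 and 19 at 48 h. Its mean rose from 0.224 ± 0.164 CPM to 1.64 ± 0.474 at 24 h (log2 fold change 2.90, standard error 0.567, edgeR adjusted p = 0.009) and to 1.36 ± 0.439 at 48 h (log2 fold change 2.62, edgeR adjusted p = 0.0136). Without 48 h replicate 1, the latter missed the threshold (log2 fold change 2.36, edgeR adjusted p = 0.063). Gdnf is made by the Sertoli and myoid cells whose markers moved as given above, and their part in its level was not tested.

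Nrtn, which encodes neurturin, measured 7.91, 9.57 and 16.6 CPM at 0 h, 29.6, 27.7 and 26.7 CPM at 24 h and 15.7, 14.6 and 16.2 CPM at 48 h. It rose at 24 h (log2 fold change 1.31, edgeR adjusted p = 0.00999) and was lower again at 48 h than at 24 h (log2 fold change -0.86, edgeR adjusted p = 0.000331). The rise missed the threshold without 0 h replicate 2 (log2 fold change 1.18, edgeR adjusted p = 0.0519). With offsets for GC content and length in the edgeR fit it was smaller, with a log2 fold change of 0.47, still past the threshold. Against 0 h, Nrtn at 48 h differed by 0.45 on the log2 scale (edgeR adjusted p = 0.253), and by 0.85 without 0 h replicate 3 (edgeR adjusted p = 0.00481).

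Artn, which encodes artemin, had 31, 48 and 32 counts at 0 h, 18, 26 and 4 at 24 h and 11, 10 and 8 at 48 h. It fell at 48 h against 0 h (log2 fold change -2.05, edgeR adjusted p = 0.00295), while its co-receptor gene Gfra3 was higher. At 24 h the log2 fold change of Artn was -1.25 (edgeR adjusted p = 0.162). Pspn, which encodes persephin, had at most 9 counts in any library and did not pass the expression filter. Gdf15, a distant relative that signals through RET with the co-receptor GFRAL, had only 9, 6 and 12 counts at 0 h. It had 22, 26 and 28 counts at 24 h and 36, 30 and 33 at 48 h, with means of 0.485, 1.28 and 1.62 CPM. Gdf15 rose at 24 h (log2 fold change 1.40, edgeR adjusted p = 0.0299) and 48 h (log2 fold change 1.73, edgeR adjusted p = 0.0111). These calls were lost without 0 h replicate 2 or any 1 of the 24 h libraries at 24 h (edgeR adjusted p up to 0.111), and without 48 h replicate 1 at 48 h (edgeR adjusted p = 0.0546). Gfral had 0 counts in all 9 libraries, and a count of 0 allows an expected count of up to 3 in a library.

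Of the other receptors, Sdc3, which encodes the heparan sulfate proteoglycan syndecan-3 that binds GDNF family ligands, rose. It measured 10.0, 14.0 and 15.5 CPM at 0 h, 41.6, 43.5 and 44.1 CPM at 24 h and 33.3, 36.5 and 31.7 CPM at 48 h. The log2 fold changes were 1.72 at 24 h (edgeR adjusted p = 0.000406) and 1.36 at 48 h (edgeR adjusted p = 0.0012), with a difference of -0.36 between 48 h and 24 h (edgeR adjusted p = 0.0107). Ncam1, a GDNF receptor that works without RET, and Gas1, a distant relative of the co-receptors, did not pass the threshold in any comparison. Their means were 29.6, 33.0 and 33.6 CPM for Ncam1 and 16.8, 13.2 and 14.9 CPM for Gas1.

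Of 31 adaptors and effectors through which RET signals, 30 were tested. At 24 h, 3 rose, 7 fell and 20 did not pass the test, beside the 25.5% of all genes tested that passed, with a median log2 fold change of -0.06 beside 0.01 over all genes. At 48 h against 0 h, 5 rose, 8 fell and 17 did not pass, beside 31.6% of all genes that passed, with a median of -0.22 beside 0.02. At 48 h against 24 h the numbers were 3, 6 and 21, beside 21.3% of all genes that passed. Fyn, a Src family kinase, had the largest fall of this list at 48 h, from 170 ± 17.6 CPM to 74.8 ± 3.19 at 24 h and 87.0 ± 5.68 at 48 h (log2 fold changes of -1.17 and -0.96, edgeR adjusted p = 0.000393 and 0.000895). Grb10, an adaptor that binds RET, rose from 42.9 ± 2.08 to 91.2 ± 5.40 CPM at 48 h (log2 fold change 1.09, edgeR adjusted p = 0.000323). Akt1, a kinase downstream of PI3K, rose from 92.8 ± 19.3 to 177 ± 4.49 CPM at 24 h and 160 ± 8.88 at 48 h (log2 fold changes of 0.94 and 0.79, edgeR adjusted p = 0.00396 and 0.00816).

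Smaller falls were those of Grb7 and Dok4, adaptors that bind RET, and Map2k1, the kinase MEK1 that activates ERK. At 48 h their log2 fold changes were -0.88, -0.73 and -0.69 (edgeR adjusted p = 0.00368, 0.019 and 0.00133). The Dok4 call was lost without 0 h replicate 2 or any 1 of the 48 h libraries (edgeR adjusted p up to 0.0806). At 24 h they were -0.45, -0.06 and -0.45, of which those of Grb7 and Map2k1 passed (edgeR adjusted p = 0.0429 and 0.0142). The 24 h call of Grb7 was lost without any 1 library other than 0 h replicate 1 (edgeR adjusted p up to 0.162), and that of Map2k1 without 0 h replicate 2 (edgeR adjusted p = 0.0507), 24 h replicate 1 (0.0846) or 24 h replicate 2 (0.0857). Of the genes with no call against 0 h, those with the most counts were Plcg1, the phosphatase gene Ptpn11 and Nras. Their means at 0 h, 24 h and 48 h were 164, 159 and 141 CPM for Plcg1, 133, 138 and 119 CPM for Ptpn11, and 111, 114 and 125 CPM for Nras.

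Among 7 tested genes that remove or restrain RET, 1 rose at 24 h and 48 h against 0 h, beside 11.4% and 13% of all genes. This was Ptprf, a receptor phosphatase that acts on RET, at 546 ± 59.1, 733 ± 58.5 and 727 ± 36.4 CPM (log2 fold changes of 0.44 and 0.41, edgeR adjusted p = 0.0383 and 0.0315). Its calls were lost when most single libraries were left out, with the exceptions of 0 h replicate 3 at 24 h and of 0 h replicates 1 and 3 at 48 h. The other 6 did not pass the threshold against 0 h, with the ubiquitin ligase gene Cblb at 77.7, 77.9 and 63.7 CPM, Lrig1 at 106, 95.6 and 83.4 CPM and Cd2ap at 117, 102 and 134 CPM.

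The 14 genes known to respond to GDNF in cultured SSCs all fell at 24 h, beside 14.2% of all genes tested. Their median log2 fold change was -2.72, beside 0.01 over all genes. At 48 h, 13 of the 14 fell, beside 18.5% of all genes tested, and 1, Mycn, did not pass the test. The median was then -3.23, beside 0.02 over all genes. Falls of several of these genes in the same libraries were known when the list was written. The list is thus not independent evidence of its direction. FGF2 and EGF, like GDNF, are not listed for the later medium, and the part of each in these falls was not tested. Etv5, an ETS factor, went from 523 ± 36.9 CPM to 11.3 ± 1.01 at 24 h and 7.77 ± 0.451 at 48 h (log2 fold changes of -5.52 and -6.07, edgeR adjusted p = 2.68e-06 and 1.92e-06). Lhx1, a homeobox factor, went from 145 ± 8.23 to 3.34 ± 0.328 and 2.57 ± 0.521 CPM, and Bcl6b, a repressor required for SSC maintenance, from 338 ± 51.7 to 27.6 ± 2.37 and 30.9 ± 3.27 CPM. The early growth response genes Egr2 and Egr3 had log2 fold changes of -3.58 and -5.76 at 24 h (edgeR adjusted p = 2.38e-05 and 3.01e-05) and of -3.99 and -5.50 at 48 h (edgeR adjusted p = 5.7e-06 and 0.000242), and that of Egr3 at 48 h was -6.26 without 48 h replicate 1. T, the gene of brachyury, was at 1.87 CPM at 0 h and had at most 3 counts in each later library. It was at least 12.3-fold lower at 24 h and 12.8-fold lower at 48 h, against a floor of 3 counts per library. With T at this bound the medians of the list were the same. From 24 h to 48 h, of 13 tested genes 2 rose, 3 fell and 8 did not pass. Of all genes tested, 8.61% rose and 12.7% fell in this comparison.

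Over the 5 lists together, 8 of 58 tested pathway genes rose and 21 fell at 24 h, 9 rose and 22 fell at 48 h against 0 h, and 6 of 57 rose and 12 fell at 48 h against 24 h. Over all genes tested, 11.4% were higher and 14.2% lower in the first comparison, and 13% and 18.5% in the second. In the third, 8.61% were higher and 12.7% lower. Of the falls, 14 at 24 h and 13 at 48 h against 0 h came from the GDNF-responsive list, where several were known beforehand. The others were 7 adaptors and effectors at 24 h, and 8 of these and 1 ligand at 48 h. The pooled counts are thus not independent evidence of a fall of the pathway. The 29 calls at 24 h became 19 without 0 h replicate 2 and 17, 18 and 18 without 24 h replicates 1, 2 and 3. The 31 calls at 48 h became 20 without 48 h replicate 1, and the 18 at 48 h against 24 h became 11 without 48 h replicate 1.

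**Figure D4:**
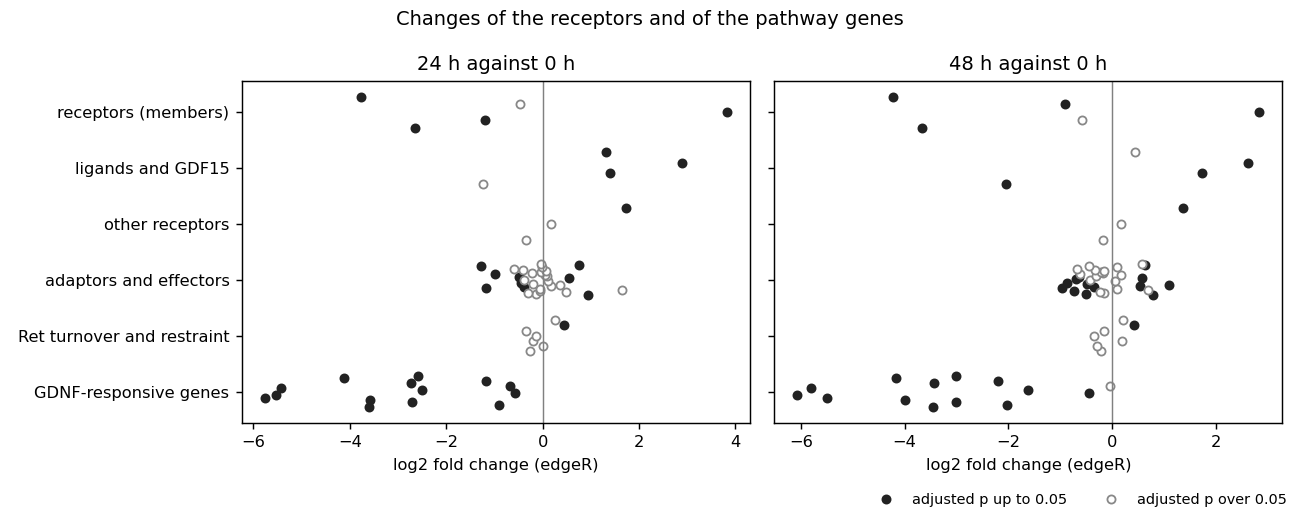
Log2 fold change (horizontal axis) at 24 h against 0 h (left) and 48 h against 0 h (right) for the receptors and the 5 lists of pathway genes (rows), with 1 point per tested gene, spread within a row by name only. Filled points passed an adjusted p of 0.05 in edgeR, and T is drawn at its fitted value. In the GDNF-responsive row the points lie to the left, with medians of -2.72 and -3.23, and in the rows of adaptors and of Ret turnover most are open and near 0.

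The genes whose pattern over the 9 libraries lay nearest to each receptor were found by the root mean square difference of log2 CPM, each gene centred on its own mean, among 10951 genes with a mean of at least 10 CPM at 1 time. Nearest to Ret were Tmem132e (0.186), 9930012K11Rik (0.189), Adrb1 (0.202), Egr2 (0.205) and Barhl2 (0.208). Tmem132e, for example, went from 247 to 18.7 and 10.7 CPM. Egr2 is at once on the list of GDNF-responsive genes. Nearest to Gfra1 were Cdh4 (0.124), Ace (0.163), Hdac7 (0.172), Ephb1 (0.176) and Igdcc3 (0.181), of which Hdac7 went from 242 to 39.8 and 20.7 CPM.

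For Gfra3, with its peak at 24 h, the distances were larger, with Ltbp4 (0.239), Ccdc88b (0.37), Cyp26a1 (0.371), Hcn4 (0.394) and Tgm2 (0.428) nearest. Cyp26a1, which encodes an enzyme that breaks down retinoic acid and is itself induced by it, went from 2.13 to 38.6 and 14.1 CPM, and Ltbp4 from 1.46 to 23.1 and 10.6 CPM. For Gfra4, with its shallow decline, the nearest were Galnt16 (0.0744), Exosc4 (0.0844), Slc12a5 (0.086), Sema4c (0.0879) and Sipa1l2 (0.0898). Gfra2 was below the mean of 5 CPM required for this search. With a prior count of 0.5 in place of 2, the 5 nearest genes were the same for Gfra1, Gfra3 and Gfra4, and 4 of 5 were shared for Ret. The points share libraries and depth, and closeness of pattern is a description only.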

How the data were processed

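The authors deposited raw counts, whole numbers of reads per Ensembl gene identifier for each of 9 libraries, without normalization. The submitters' processing notes name fastp, HISAT2, featureCounts and GRCm38, and versions and the strand setting are not given in the sources used here. Symbols, positions and exon lengths came from GENCODE M21 (GRCm38), which held 45143 of 46078 identifiers, and the others took at most 0.121% of the counts of a library. Replicates differed beyond sampling noise (chi-square of 7.12 to 81.4 for each degree of freedom), and none was merged. The 0 h libraries differed most, with 35.5 to 81.4 for their pairs and 7.12 to 26.0 for those of 24 h and 48 h.

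Each comparison used its 6 libraries with filterByExpr, TMM and glmQLFTest of edgeR 4.0.16 (R 4.3.3). The procedure was tested on simulated data. FPKM were computed here. Receptors and lists were chosen with earlier results of these data known. From lists with over 5 tested genes, the text names up to 6 called genes with the largest change at 48 h against 0 h and up to 3 abundant genes not called. Mycn, Amh, Sox9 and Rhox5 were named after their values were seen. The other cell type markers singled out by their level or direction were likewise picked with their values known. Alternatives were DESeq2 1.42.0, other scalings and filters, a joint fit of the 9 libraries, a replicate block, offsets for GC content and length, and leaving out each library. Figures were drawn with matplotlib 3.10.9.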

Additional observations from a re-analysis of the deposited data

How the results depend on the processing

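Ret, Gfra1 and Gfra3 passed the threshold in the same direction in all 3 comparisons under each alternative, including each left-out library. Gfra4 at 48 h against 0 h was also past it throughout, with log2 fold changes from -0.99 to -0.64. At 24 h against 0 h, Gfra4 passed with DESeq2 (-0.48, adjusted p = 0.0491), with all 9 libraries in 1 edgeR fit (-0.49, adjusted p = 0.0371) and with offsets for GC content and length (-0.45, adjusted p = 0.0219), and leaving out 1 library gave -0.58 to -0.36. At 48 h against 24 h it passed with no expression filter (-0.42, adjusted p = 0.0307) and was -0.19 with the offsets. Leaving out 1 library moved Gfra2 at 24 h between -1.39 and -1.06, and the pathway calls between 17 and 32 at 24 h, 20 and 34 at 48 h against 0 h, and 11 and 21 at 48 h against 24 h. A joint fit of the 9 libraries gave 7 for the last, and the Nrtn difference between 48 h and 24 h then missed the threshold (-0.85, edgeR adjusted p = 0.0599). Causes were not tested.

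No pairing of the samples by replicate number was seen: deviations of same-numbered libraries correlated at -0.28 to 0.196, over 0.1 in 1 of 9 pairs. Differently numbered libraries ran from -0.392 to 0.38. With 3 libraries at each time, this check cannot exclude a pairing. With the replicate block, Gfra2 at 24 h was at -1.19 (edgeR adjusted p = 0.0852), and calls over all genes went from 4494 to 3007 at 24 h, from 5602 to 4013 at 48 h against 0 h and from 3732 to 2497 at 48 h against 24 h. The joint fit of the 9 libraries gave 1043 for the last. Without 1 library, calls over all genes ran from 2607 to 6023, 3471 to 7116 and 1857 to 4356 in these comparisons. Under scaling by library size alone, the median over all genes moved from 0.01 to 0.12 at 24 h and from 0.02 to 0.13 at 48 h against 0 h, and the calls that were higher from 44.5% to 57.1% and from 41.2% to 52.8% of all calls. No receptor changed its direction or call under it.

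Signs turned only for pathway genes that were not called. At 24 h against 0 h, library size alone gave 0.0505 for Dok4 and 0.0841 for Plcg1, the offsets 0.0387 and 0.00641, and a filter of 10 counts in every library 0.0151 for Plcg1. Leaving out 1 library gave -0.23 to 0.10 for Dok4, -0.0778 to 0.0331 for Plcg1, -0.47 to 0.17 for Cd2ap, -0.0305 to 0.14 for Nras and -0.0517 to 0.15 for Cblb. At 48 h against 0 h, the offsets gave -0.25 for Nrtn, 0.15 for Gas1, -0.0514 for Nras and -0.0532 for Cd2ap, which ran from -0.0931 to 0.54 without 1 library. Depth limits Gfra2, Gdnf, Artn and Gdf15, with at most 69, 41, 48 and 36 counts per library.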
